A study of Mus musculus with 2 samples.

Results

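The autosomal regions with the strongest MeDIP signal are the listed regions of chromosomes 1 to 19 whose raw counts in the induced and the repressed library sum to 20 or more. They were thus chosen by the measured counts themselves. They number 622 of the 23339 listed autosomal regions (2.67%), and of 23946 in the whole table. Methylated DNA immunoprecipitation with sequencing (MeDIP-seq) pulls down sheared single-stranded DNA with an antibody against 5-methylcytosine and counts the reads that fall in each region. Mouse embryonic stem (ES) cells of the line MC1 (129S6/SvEvTac) carried a Zscan4c transgene (Zscan4-Flag) under tet control and were grown on gelatin without feeders. One library came from cells kept with 1.5 µg/ml doxycycline, in which the transgene is repressed (labelled Zscan4-), and the other from cells without the drug, in which it is induced (Zscan4+). Both groups carry the transgene, and drug and transgene state change together, so their effects cannot be told apart. With 1 library per group there is no replicate, and every interval below covers counting error only. Reads amplified by PCR are not independent molecules, so even counting error may be larger.

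Most CpG cytosines of a mammalian genome are methylated, and much of that methylation sits in repeats, in satellite DNA near centromeres, in families of duplicated genes and in the bodies of genes. The count of a MeDIP region reflects how many methylated cytosines it holds, its length, the number of genomic copies whose reads are placed there and the sequencing depth. No input library was used here, so a highly methylated single-copy region and a region that collects reads from many copies cannot be told apart from these counts. Zscan4 proteins are zinc-finger proteins of the 2-cell embryo that switch on briefly in a few ES cells at a time and have been studied for their roles in telomere maintenance and DNA methylation. Positions are in the mm9 build, as the table gives them. No mm9 annotation or sequence was used here, so genes and repeats are named only as general background on a chromosome band and no base sequence is shown.

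The strongest regions held a far larger part of the signal than of the list. They took 18.7% of the autosomal counts of the induced library (9256 counts) and 17.1% of those of the repressed one (11651). Because the summed count chose them, this concentration is a description of the choice and carries no test. Their summed counts ran from 20 to 873 with a median of 25, and 437 of them (70.3%) held between 20 and 29. Only 53 held 50 or more, and 12 held 100 or more. Just inside the threshold stood 75 regions with a sum of exactly 20, and just outside it 93 with a sum of 19. A region near the threshold is imprecise: R19401 on chromosome 7, split 15 to 5 between the induced and the repressed library, had a scaled ratio of 4.13 with a 95% exact binomial interval from 1.43 to 14.5. Scaled ratios throughout are induced over repressed after each library was brought to the same total over the 23932 regions to which the authors gave an adjusted value. On which side of 1 a ratio or its interval falls rests on this scaling, and comparisons of one ratio with another do not. The libraries summed to 51169 (induced) and 70219 (repressed) counts over all listed regions.

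**Figure D1:**
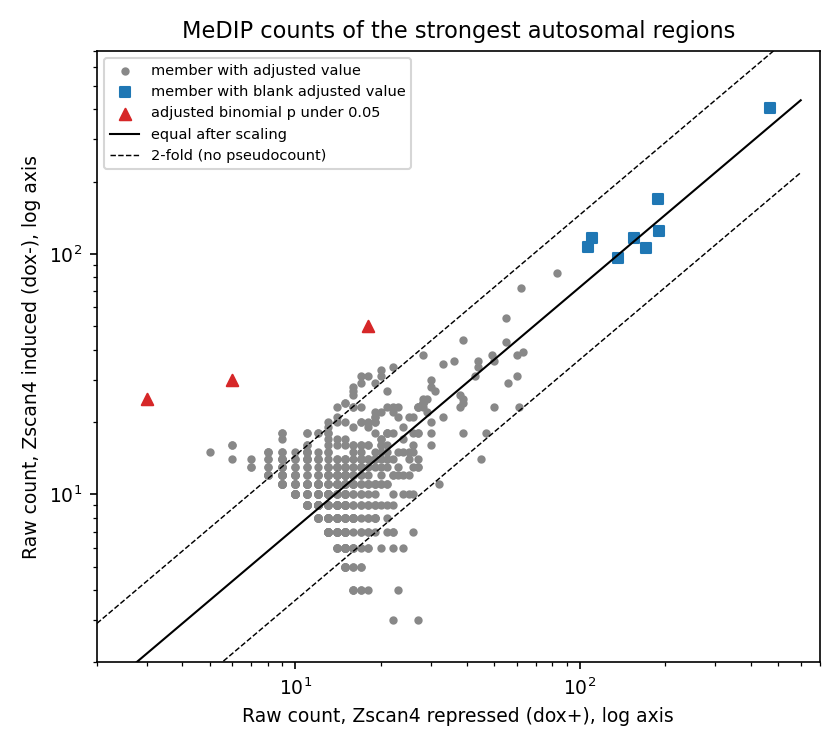
Raw counts of the 622 strongest autosomal regions, repressed library on the x axis and induced library on the y axis, both on log scales. The solid line marks equal scaled counts and the dashed lines a 2-fold difference. The 8 regions with a blank adjusted value (squares) lie near the solid line, with 96 to 405 induced counts, and 3 regions (triangles) lie above the upper dashed line.

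The 8 regions at the top were also those for which the authors' adjusted columns are blank, and the 614 others reached at most 166 counts. R02654 on chromosome 11 (3092559 to 3094077, 1518 bp) stood far above all others, with 405 induced and 468 repressed counts, or 575 summed counts per kb. R19017 on chromosome 7 (7251419 to 7253370) followed with 170 and 188 counts. Its neighbour R19016 (7230473 to 7231477) held 107 counts in each library. R10254 on chromosome 18 (3005258 to 3006339) held 125 and 190 counts. R08311 on chromosome 16 (3349892 to 3351627) held 106 and 171. R20691 and R20692 on chromosome 8 (19979432 to 19980684 and 19989704 to 19991565) held 116 and 155, and 96 and 136 counts. R01408 on chromosome 1 (197067420 to 197068420) held 116 and 111 counts and was the last region listed on that chromosome. The repressed library had the higher raw count in 6 of these 8 regions, and its total was larger too. After scaling, R01408 had the highest ratio, 1.44 (1.10 to 1.88), and R08311 the lowest, 0.854 (0.664 to 1.09). The 8 together had a ratio of 1.12 (1.04 to 1.21), and 1.03 times that of the other strong regions (0.947 to 1.11), an interval that holds 1.

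Below the blank regions, R11707 near the far end of chromosome 19 (61275161 to 61276161) held 83 counts in each library. Its adjusted values deposited by the authors, 98.6 and 71.6, are the highest in their columns. R05404, at 9833098 to 9834098 of chromosome 13, had 72 induced against 62 repressed counts and a scaled ratio of 1.60 (1.12 to 2.28). They were the only regions besides the blank ones to exceed 100 counts per kb, at 166 and 134. R06899 on chromosome 14 held 54 and 55 counts, R23339 on chromosome 9 held 39 and 63, R02879 on chromosome 11 held 43 and 55, and R16053 on chromosome 4 held 38 and 60. R13471, the last region listed on chromosome 2, held 31 and 60. R10664 on chromosome 18 held 38 and 49 over 3548 bp, which is only 24.5 counts per kb. R21119 on chromosome 8 held 36 and 50, R02652 on chromosome 11 held 29 and 56, and R22964 on chromosome 9 held 44 and 39. R17295 on chromosome 5 (123097120 to 123098947), with 23 and 61 counts, had an interval below 1, with a ratio of 0.519 (0.307 to 0.851). By density the list adds R06447, the first region listed on chromosome 14, with 34 and 44 counts in 1000 bp, R19269 on chromosome 7 with 31 and 43, and R09631 on chromosome 17 with 23 and 50. Many of the highest strong regions were shared between the libraries. Of the 20 with the highest count in each library, 15 were shared, of the top 50 in each, 34, and of the top 100, 60. The sum of the same counts chose the strong regions, so this sharing is a description.

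Strong regions were spread over all 19 autosomes but unevenly. Per 100 listed regions there were 4.75 on chromosome 17 (54 of 1136), 4.41 on chromosome 4 (70 of 1588) and 4.35 on chromosome 8 (69 of 1586). The lowest values were 1.48 on chromosome 3 (18 of 1214), 1.49 on chromosome 16 (12 of 807) and 1.56 on chromosome 18 (11 of 707). Chromosomes 4, 8 and 17 together held 31.0% of the strong regions (193) against 18.5% of the listed autosomal regions. The order of these 3 changed when regions within 100 kb were joined, but they stayed above the other autosomes: chromosome 17 then had 36 loci, chromosome 4 had 54 and chromosome 8 had 52, or 3.17, 3.40 and 3.28 loci per 100 listed regions. The median summed count of all listed regions was 4 on these 3 chromosomes, and 3 or 4 on every other autosome.

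**Figure D2:**
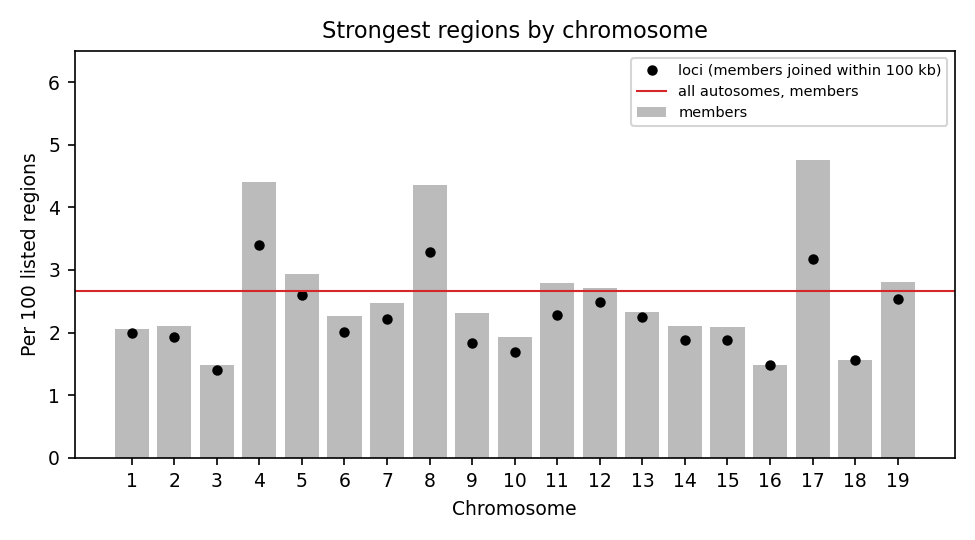
Number of strong regions (bars) and of loci after joining within 100 kb (points) per 100 listed regions of each autosome. The red line is the value over all autosomes, 2.67 strong regions per 100 listed. Chromosomes 4, 8 and 17 stand above 4, and no other bar reaches 3.

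Strong regions also crowded within chromosomes, as windows on a fixed 5 Mb grid show. Between 145 and 150 Mb on chromosome 4, 26 of 127 listed regions were strong (20.5%), in 13 loci. Distal chromosome 4 carries one of the large clusters of KRAB zinc-finger genes in mouse, a family of DNA-binding repressors whose genes have multiplied by tandem duplication and silence transposable elements. The strong regions there held 20 to 98 counts, with a median of 27, and together 377 induced and 538 repressed counts. Their ratio was 0.965 (0.844 to 1.10), with 10 higher and 16 lower in the induced library. The other 101 listed regions of that window had a median sum of 6, against 3 for all other autosomal regions, and 27.7% of them held 10 to 19 counts, against 10.3%. Signal in this stretch was higher below the threshold too. That was not particular to it: in the stretches described next, the share with 10 to 19 counts was 24.2% on chromosome 8 and 22.6% on chromosome 11. On chromosome 17 it was 12.1%.

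Proximal chromosome 8 between 15 and 25 Mb, a pair of windows taken as one because a locus straddles their border, held 15 strong regions among 81 listed (18.5%), in 6 loci. The defensin genes, small antimicrobial peptides in tandem arrays of variable copy number, lie in proximal chromosome 8. The strong regions there held 20 to 271 counts and had a ratio of 1.02 (0.888 to 1.16). The window from 30 to 35 Mb on chromosome 17 held 14 of 121 (11.6%), in 6 loci, with a ratio of 0.925 (0.759 to 1.13). Its far end reaches toward the major histocompatibility complex, whose class I genes present peptides to T cells and form a duplicated family. The window from 115 to 120 Mb on chromosome 11 was less clustered. Its 12 strong regions fell into 11 loci, and they were longer and thinner, with a median of 14.8 counts per kb and 1884.5 bp. Their ratio was 1.34 (1.07 to 1.68) from 156 and 160 counts, but 1.11 (0.888 to 1.40) with the median of ratios. The other regions of that window had 0.998 (0.862 to 1.16) in the main scaling. In the same scaling the other regions of the chromosome 4 window had 0.875 (0.750 to 1.02). Those of the chromosome 8 stretch had 1.04 (0.843 to 1.28), and those of the chromosome 17 window 1.12 (0.944 to 1.33). For the stretches on chromosomes 4, 8 and 17 the intervals with the median of ratios lay below 1. Their ratios were 0.801 (0.700 to 0.915) on chromosome 4, 0.844 (0.737 to 0.9665) on chromosome 8 and 0.768 (0.630 to 0.934) on chromosome 17. Of the 4 intervals, 1 lay above 1 and 0 below with TMM scaling, and 0 above and 3 below on raw counts. These 4 stretches were picked for their number of strong regions, and their number was not tested against chance.

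The outermost listed regions of the chromosomes were strong far more often than other regions. Of the 38 regions that stand first or last on an autosome, 7 were strong (18.4%), and of the 89 within 100 kb of such a region 16 were (18.0%), against 2.67% of all autosomal regions. Mouse chromosomes have the centromere at one tip, next to long arrays of satellite repeats, and the telomere repeats at the other. These 16 regions included 4 of the 8 with a blank adjusted value (R01408, R02654, R08311 and R10254) and 12 of the 53 with a sum of 50 or more. Their median sum was 81.5. The listed regions around them did not share this: the remaining regions within 100 kb of an outermost one had a median sum of 3, the same as all other autosomal regions. On the centromeric side lay 9 of the 16, on chromosomes 6, 11, 14, 16, 17 and 18, and on the far side 7, on chromosomes 1, 2, 9 and 19. Chromosomes 9, 11 and 19 gave 9 of the 16, in 1 locus each, and the distance of 100 kb was chosen after the data were seen. The ratio over the 16 was 1.04 (0.959 to 1.13), an interval that holds 1. Over wider zones, which include these 16 regions, the share was much lower, and the part further in was not counted alone. Within 3 Mb of the first listed region 2.94% of regions were strong (23), and within 3 Mb of the last 3.59% (23).

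Strong regions were longer than the rest, although among them those of 1000 bp had the highest median counts per kb. The densest single region, R02654, was 1518 bp long. Their median length was 1511 bp (quartiles 1000 and 1847, longest 7077), against 1099 bp (quartiles 1000 and 1657) for the other autosomal regions. Exactly 1000 bp, the shortest length in the table, was found in 166 strong regions (26.7%) and in 44.8% of the others. The share of listed regions that were strong rose with length, from 1.60% at 1000 bp to 2.70% at 1001 to 1499 bp, 3.90% at 1500 to 1999 bp and 4.35% at 2000 to 2999 bp. At 3000 bp or more it was 23.1%, from 9 of only 39 regions. A longer region collects more counts at equal density, so length and the rule are linked and no test is given. Regions with 10 to 19 counts had a median length of 1499 bp, close to that of the strong ones.

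Counts per kb ran the other way within the strong regions. Their median was 18.0 counts per kb (quartiles 13.3 and 25.3), against 2.41 in the other autosomal regions. It fell from 26.0 in strong regions of 1000 bp to 13.8 at 1500 to 1999 bp and 6.43 at 3000 bp or more, as a fixed minimum of 20 counts would make it. The longest, R07220 on chromosome 14 (99708247 to 99715324), had 26 induced and 38 repressed counts over 7077 bp, or 9.04 per kb. R07220 was named after its values were seen. With the minimum set at 20 counts per kb instead, 283 regions remained (45.5% of the 622), with a median length of 1000 bp. All of them are strong by the sum, as they must be when no listed region is under 1000 bp. Only 34 reached 50 counts per kb and 10 reached 100, of which 8 were the blank regions.

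**Figure D3:**
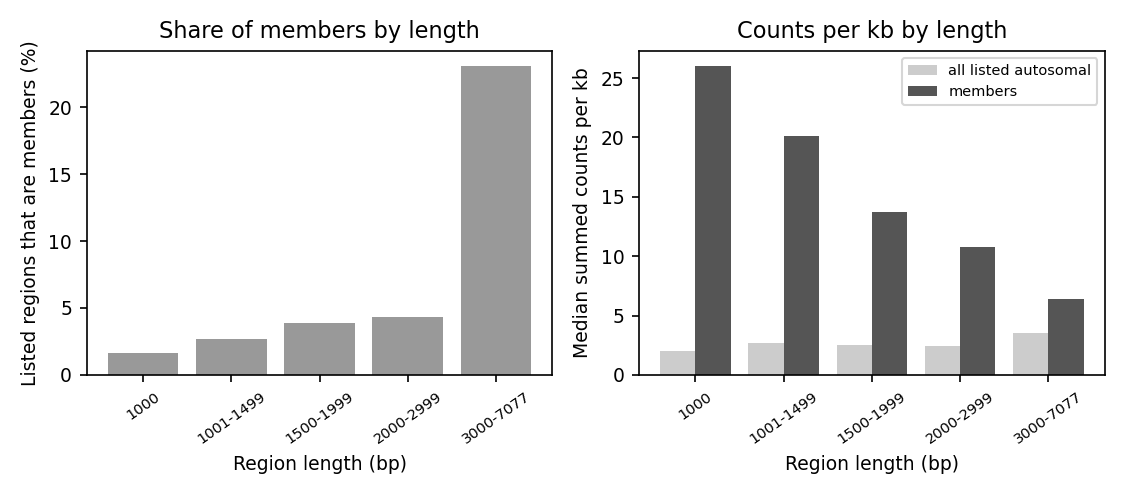
Left, percent of listed autosomal regions that are strong, by region length in bp. Right, median summed counts per kb of all listed autosomal regions (light) and of strong regions (dark) in the same length classes. The share of strong regions rises from 1.60% to 23.1% with length while the density of the strong regions falls from 26.0 to 6.43 counts per kb.

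Most strong regions stood alone. Joining those within 100 kb gave 527 loci, of which 456 held 1 strong region, 59 held 2, 6 held 3, 4 held 4, 1 held 5 and 1 held 9. They were not in empty neighbourhoods, however: a strong region had a median of 6 other listed regions within 100 kb (by midpoints), and the other autosomal regions had 5. Listed regions near a strong one carried slightly more signal themselves. Among the 452 other regions less than 10 kb from a strong one, 19.9% held 10 to 19 counts and the median sum was 4. At 10 to 30 kb 12.8% did, at 30 to 100 kb 14.0%, at 300 to 1000 kb 11.4%, and beyond 1000 kb 8.18%, with a median sum of 3. Around strong regions that stood alone the nearest value was 19.5%.

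**Figure D4:**
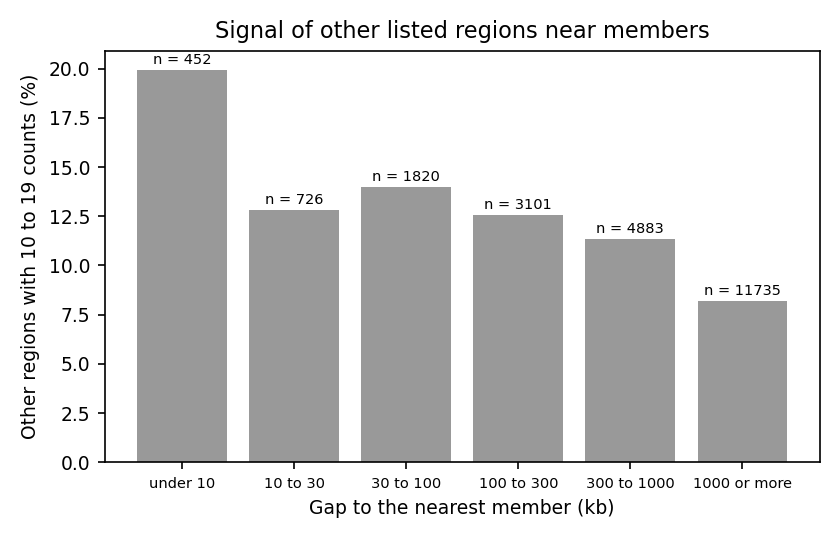
Percent of other listed autosomal regions with 10 to 19 summed counts, by their gap in kb to the nearest strong region, with the number of regions above each bar. The share falls from 19.9% under 10 kb to 8.18% at 1000 kb or more, with 14.0% at 30 to 100 kb above the 12.8% before it.

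Between the libraries, the strong regions held relatively more of the induced counts than other regions did. After scaling, 359 of the 622 lay above 1 and 263 below, and their summed ratio was 1.09 (1.06 to 1.12). That ratio was 0.908 with the median of ratios (225 higher and 396 lower) and 0.794 on raw counts (148 higher, 437 lower), so its direction rests on the scaling. TMM scaling gave 1.04, with 325 higher and 297 lower. The comparison with the remaining autosomal regions does not: the ratio of the strong regions was 1.11 times theirs (1.08 to 1.15), and against the 2342 regions with 10 to 19 counts it was 1.10 times as high (1.06 to 1.14). The split varied with the count. The ratio was 0.931 (0.895 to 0.968) in regions with 1 or 2 counts, 0.989 (0.973 to 1.01) with 3 to 9, 0.985 (0.957 to 1.01) with 10 to 14 and 1.01 (0.969 to 1.04) with 15 to 19, just below the threshold. Among the strong regions it was 1.05 (1.01 to 1.10) at 20 to 29 counts, 1.16 (1.10 to 1.23) at 30 to 49, 1.07 (0.993 to 1.16) at 50 to 99, 1.30 (1.09 to 1.55) in the 4 regions with 102 to 166 and 1.12 (1.04 to 1.21) in the 8 blank regions above that. The 30 to 49 class had 1.10 times the ratio of the 20 to 29 class (1.03 to 1.18), and regions with 50 or more had 1.06 times (0.990 to 1.13). Strong regions of 1000 bp had 1.06 times the ratio of longer ones (0.9996 to 1.13). Those standing alone had 1.04 times the ratio of those in loci (0.981 to 1.10). Both intervals hold 1. Of 8 such contrasts computed, the intervals that left out 1 were those of the 30 to 49 class and of the strong regions against those with 10 to 19 counts.

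The spread between regions exceeded the counting error that these intervals cover. Around their common share the strong regions varied 1.40 times as much as binomial counting error gives, with 1.17 times at 20 to 29 counts, 1.72 at 30 to 49 and 2.57 at 50 to 99, against 1.14 for regions with 10 to 19 counts. By chromosome, the ratio of the strong regions ran from 0.842 (0.695 to 1.02) on chromosome 3, with 178 and 291 counts, to 1.26 (1.08 to 1.47) on chromosome 19, with 326 and 355. On chromosome 1 it was 1.23 (1.08 to 1.40), with 21 higher and 8 lower regions. Intervals lay above 1 on 9 chromosomes and below 1 on 0. With the median of ratios 0 lay above and 6 below (chromosomes 3, 5, 8, 9, 12 and 16), with TMM 3 and 1, and on raw counts 0 and 13.

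Single regions with a large difference were few. With a pseudocount of 1, 43 strong regions (6.91%) were 2-fold or more higher and 30 (4.82%) 2-fold or more lower in the induced library. Over all autosomal regions with a count, 17.5% were 2-fold higher and 17.5% were 2-fold lower, and among those with 10 to 19 counts 8.84% and 10.5%. A region with few counts passes 2-fold by counting error more easily, so these shares fall with the count and the lower shares of the strong regions are not a result about them. The exact two-sided binomial test, with Benjamini-Hochberg adjustment over all 21323 regions with a count, called 3 strong regions higher (0.0143% of all autosomal regions with a count) and 0 lower. Before adjustment, 43 strong regions were higher and 13 lower at p under 0.05. What differs in this test is the reads of one library against the other, and it does not test the conditions.

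R18340, at 87578588 to 87579588 of chromosome 6, had 25 induced but only 3 repressed counts. Its scaled ratio was 11.5 (3.50 to 59.4), the highest of all strong regions. R05912 on chromosome 13 held 30 and 6 counts, a ratio of 6.89, and R02755 on chromosome 11 held 50 and 18, a ratio of 3.83. Each had an adjusted exact binomial p = 0.00373, and 0 were called with the median of ratios or on raw counts. All 3 stood alone in their locus. By size the next were R19401, given above, R11708 at the far end of chromosome 19 (16 and 6 counts) and R15537 on chromosome 4 (16 and 6 counts, ratio 3.67). At the other side, R17634, at 144175168 to 144176874 of chromosome 5, had 3 induced against 27 repressed counts, for a ratio of 0.153 (0.0297 to 0.497). R13410 on chromosome 2 held 3 and 22. R20696 and R20689, both in the chromosome 8 locus described below, held 4 and 23, and 4 and 17. R14095 on chromosome 3 held 4 and 18, and R09555 on chromosome 17 held 4 and 17. The size of the ratio selected these regions, and their intervals only describe them. The 6 lowest regions held 21 to 30 counts.

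Neighbouring strong regions differed from each other by about as much as counting error gives in the loci of 2. They differed by more in a locus on chromosome 8 and another on chromosome 11. Of the 71 loci with 2 or more strong regions, 37 (52.1%) had all of them on the same side of a scaled ratio of 1. In 23 all were higher, in 14 all lower, and in 34 they were mixed. All 23 of the higher loci held 2 strong regions. Among the 59 loci of 2, 34 (57.6%) were on the same side, and the log2 ratios of the members correlated weakly across these 59 loci (Pearson r = 0.23, Spearman rho = 0.26). Their median absolute difference was 0.46 on the log2 scale. Neighbours share their libraries and a similar count, and the correlation is a description. Of the 166 strong regions in loci, 52.4% lay above 1, so unrelated neighbours would often be on the same side too. The shares on the same side were not tested against that. R15892 and R15893 on chromosome 4 overlap, as do R02948 and R02949 on chromosome 11, and such pairs may hold the same reads. The widest gap was on chromosome 19, where R11068 (14 and 8 counts) and R11069 (7 and 19) lie about 4 kb apart and differed by 2.06 on the log2 scale. Their intervals, 0.943 to 6.63 and 0.180 to 1.26, overlap.

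The variance of strong regions around the pooled share of their own locus was 1.36 times binomial over the 166 strong regions in loci. It was 0.975 times in the loci of 2 (118 strong regions) and 1.99 times in the loci of 3 or more (48). Loci on chromosomes 8 and 11 carried much of this. Within the chromosome 8 locus of 9 the value was 4.16, and within the chromosome 11 locus of R02654 it was 5.08. Without the chromosome 8 locus of 9 the value over all loci was 1.10, without the chromosome 11 locus of R02654 it was 1.24, and without both it was 0.959. Leaving out loci with a wide spread lowers the value by construction, so these values are a description. Some loci of 2 also had high values, with 6.20 for R22901 and R22906 on chromosome 9. For R19396 and R19401 on chromosome 7 it was 5.41. Over all loci, with overlapping strong regions thinned to 1, the value was 1.38. For comparison, all 166 strong regions in loci varied 1.42 times around their common share. The 95% interval of the region held the ratio of its locus in 160 of the 166 (96.4%).

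The chromosome 8 locus (19784359 to 20020749, 236 kb) holds 10 listed regions, of which 9 are strong. Its sum of 317 induced and 422 repressed counts gave a ratio of 1.03 (0.891 to 1.20). The blank regions R20691 and R20692, which hold most of the counts, lay at 1.03 and 0.972. The 7 others were far less alike. R20688 held 28 and 16 counts, a ratio of 2.41 (1.26 to 4.77). R20690 held 21 and 14 (2.07, 1.00 to 4.39), and R20697 held 23 and 14 (2.26, 1.12 to 4.75). R20689 with 4 and 17 counts (0.324, 0.0793 to 0.993) and R20696 with 4 and 23 (0.239, 0.0602 to 0.701) lay on the other side. R20693 and R20694 held 9 and 17, and 16 and 30 counts, with ratios of 0.729 and 0.734. Regions on opposite sides lie next to each other: R20689 and R20690 lie within 7 kb of each other (6566 bp) and their intervals just fail to overlap. R20696 and R20697 lie as close and their intervals do not overlap either. Without the 2 blank regions the ratio of the locus was 1.10 (0.846 to 1.44).

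The locus at the start of chromosome 11 (3023366 to 3094077) holds 4 listed regions, all strong. R02654 took 83.6% of its counts. Its ratio of 1.19 (1.04 to 1.36) stood above that of R02653 with 14 and 45 counts (0.428, 0.217 to 0.795), and these intervals do not overlap. R02652 with 29 and 56 counts lay at 0.713 (0.439 to 1.14), and R02651 with 12 and 15 at 1.10.

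The remaining loci with 4 or more strong regions showed no such disagreement beyond their intervals. On chromosome 4 the locus from 146791733 to 146929606 held 5 strong regions among 8 listed, with 66 induced and 96 repressed counts, for a ratio of 0.947 (0.681 to 1.31). Its members ran from 0.689 to 1.28, and its strongest, R16077, held 24 and 28 counts. The next locus along, from 147112496 to 147293791, held 4 with a ratio of 1.09 (0.739 to 1.61). Its strongest, R16086, held 20 and 17 counts and lay above 1, while the 3 others lay below 1. On chromosome 17 the locus from 30727165 to 30747628 had 4 listed regions, all strong, with 55 and 59 counts, for a ratio of 1.28 (0.873 to 1.89). Its strongest, R09549, held 24 and 15 counts and had a ratio of 2.20 (1.11 to 4.52), while R09550 next to it held 6 and 15 (0.551, 0.175 to 1.50). The locus from 33960729 to 34119032, also on chromosome 17, had 48 and 94 counts and a summed ratio of 0.703 (0.486 to 1.01). Its strongest, R09631, held 23 and 50 counts, and 3 of its 4 strong regions were lower in the induced library. The last listed regions of chromosome 9, a locus of 3 named after its values were seen, were R23337, R23338 and R23339. They held 18 and 39, 21 and 33, and 39 and 63 counts. All 3 lay below 1 (0.636, 0.876 and 0.852), and together they had a ratio of 0.796 (0.594 to 1.06).

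**Figure D5:**
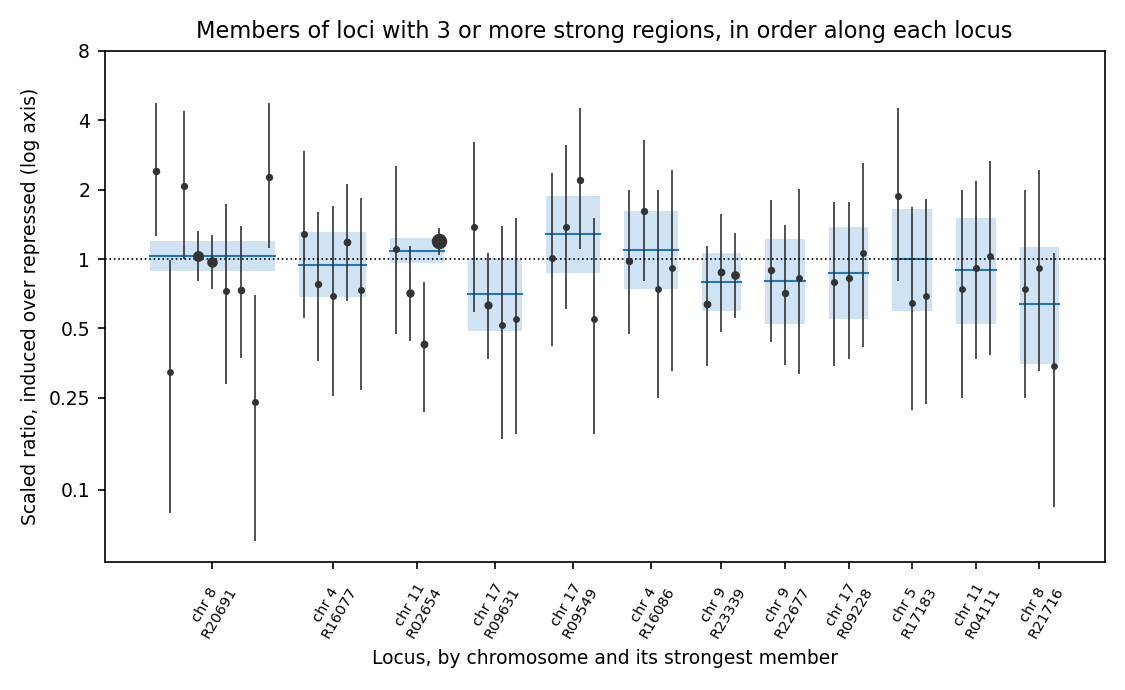
Scaled induced-to-repressed ratio (log axis) of each strong region in the 12 loci with 3 or more, in order along the locus, with 95% exact binomial intervals; larger points have more counts. Blue lines and bands are the ratio and interval of the whole locus. In the chromosome 8 locus at the left the single regions run from 0.239 to 2.41 around a locus ratio of 1.03, and in the chromosome 11 locus R02653 lies at 0.428 beside R02654 at 1.19.

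In 8 loci of 2 the summed interval left out 1, with 7 above and 1 below. Over all 71 loci of 2 or more these numbers were 6 and 3 with TMM, 0 and 9 with the median of ratios, and 0 and 15 on raw counts. These loci were named after their values were seen. The best covered was that of R19016 and R19017 on chromosome 7, with 277 and 295 counts, for a ratio of 1.29 (1.09 to 1.53). Both its regions were blank in the adjusted columns and lay close together, at 1.38 and 1.25. R11707 and R11708 on chromosome 19 gave 1.53 (1.14 to 2.06) from 99 and 89 counts, of which R11707 held 88.3%. R15892 and R15893 on chromosome 4 gave 1.70 (1.11 to 2.62). These 2 overlap, as their locus spans 1.865 kb and no listed region is under 1000 bp. They may hold the same reads, so their interval may be too narrow. R16144 and R16145 on chromosome 4 gave 2.00 (1.13 to 3.62), and R09999 and R10002 on chromosome 17 gave 2.04 (1.19 to 3.53). R09469 and R09471 on chromosome 17 gave 2.19 (1.15 to 4.28), and R15058 and R15061 on chromosome 4 gave 1.72 (1.02 to 2.94). The locus below 1 was that of R21803 and R21804 on chromosome 8 (113565933 to 113571792), with 24 and 59 counts, for a ratio of 0.560 (0.333 to 0.914). Over single strong regions, 40 intervals lay above 1 (6.43%) and 13 below (2.09%), against 0.808% and 0.555% of all autosomal regions with a count. Intervals narrow with the count, so these shares rise with it. Among regions with 10 to 19 counts they were 2.05% and 1.88%. The balance turned with the scaling, from 40 above and 13 below to 26 and 13 with TMM, 13 and 30 with the median of ratios, and 4 and 56 on raw counts.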

How the data were processed

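The study's MeDIP-seq table, 2 libraries of genomic DNA, was used as deposited. Per the labels' protocols, DNA was sonicated to 300 to 1000 bp, denatured, precipitated with a 5mC antibody and run on an Illumina Genome Analyzer II. The build is mm9 per the submitters' processing notes. The aligner is not given in the sources used here, nor are the counting, duplicate handling, choice of regions or whether starts count from 0 or 1. The authors deposited raw counts. The adjusted signal deposited by the authors equals the count times 1.19 (induced) or 0.863 (repressed) to within 0.0491, and is blank for 14 regions. Ratios use these factors unrounded, with 95% exact Clopper-Pearson intervals. Contrasts use conditional exact odds ratio intervals. With 1 library per group and 0 residual degrees of freedom, no test across replicates could be fitted with edgeR. The binomial test compared each region with the induced share of 42.1%. Named were the blank regions, the 12 highest sums, the 8 densest, the strongest of each locus of 4 or more, and the 6 highest and 6 lowest ratios. Members and lists were chosen with earlier results of these data known. Scripts were tested on simulated data. Alternatives covered scaling (edgeR 4.0.16 TMM, DESeq2 1.42.0), threshold, pseudocount, joining distance and overlaps. Python 3.11.15, numpy 2.4.6, pandas 2.3.3, scipy 1.17.1, matplotlib 3.10.9 and R 4.3.3 were used. The gene and promoter tables at hand are of another build and were not used.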

Additional observations from a re-analysis of the deposited data

Results flagged for a closer look

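Outside the autosomes, 9 regions of chromosome X and 0 of chromosome Y reached a summed count of 20. They held 2908 counts (1250 induced, 1658 repressed), and 6 of them were blank in the adjusted columns. Their ratio was 1.04 (0.964 to 1.12). The highest, R23940, held 355 and 491 counts. They were singled out because the signal lies outside the autosomal comparison and above the limit that a count of 0 allows, which is 3 counts.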

How the results depend on the processing

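No paired analysis was possible because each group has 1 library. The ratio of the strong regions, 1.09, was 1.04 under TMM, 0.908 under the median of ratios and 0.794 without scaling, and 1.13 at a minimum of 30 counts. It stayed within its interval at a minimum of 50, without the blank regions, without the locus with the most counts, with overlapping members thinned, and, chosen after seeing the data, without the 3 regions called. The scaling factor moved by −0.07, −0.27 and −0.46 in log2 units. The number 2-fold higher (43) was 13 with a pseudocount of 5, 15 under the median of ratios and 7 without scaling, and the number lower (30) was 9, 56 and 89. The 3 binomial calls became 0 under the median of ratios and 0 without scaling. Joining within 1 Mb gave 332 loci in place of 527, and joining within 10 kb left 14 of 24 loci on the same side in place of 37 of 71. Numbers of intervals above and below 1 under each scaling, added after seeing the data, are given with the results above. Choosing by counts per kb gave a median length of 1000 bp in place of 1511. Under TMM, 32 strong regions were 2-fold higher and 31 lower, 3 were called, and 38 of 71 loci lay on the same side. Some numbers of intervals moved more under TMM, with 3 chromosomes above 1 in place of 9. The cause of the scaling differences was not tested. Depth limits single regions, since 70.3% of the strong ones held under 30 counts.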
